A study of Mus musculus with 4 samples.

Results

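A set of 33 genes was counted in both WT libraries of cervical motor neurons (MNs) and was near silence in both *Patz1* KO libraries. The 33 were selected on these counts: a gene symbol had at least 30 raw counts in each WT library and at most 6 in each *Patz1* KO library. Symbols beginning with Hox, Kcn, Pcdh or Col and a digit were to be left out, which removed 0 symbols. The 33 make up 0.272% of the 12147 symbols that reached 30 counts in both WT libraries, out of 23420 symbols in all. The opposite pattern, at least 30 counts in both *Patz1* KO libraries and at most 6 in both WT libraries, was met by 7 of 12231 symbols (0.0572%). *Patz1* KO replicate 1 decided the number most: without it, 65 symbols met the rule. The 33 are among them by construction, since leaving out a library loosens the rule. Since the counts chose the 33 genes, their levels and folds are given as a description, with no test.

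RNA was measured by stranded sequencing of total RNA after removal of ribosomal RNA. The 4 libraries came from E14 cells, mouse embryonic stem cells (ESCs) of an established line, that were differentiated into cervical MNs through embryoid bodies with retinoic acid and a smoothened agonist. The WT cells were labelled wild type (n = 2 libraries) and the *Patz1* KO cells *Patz1* -/- (n = 2 libraries), and no other allele or agent separated the groups. Sample titles speak of ESCs, while the source and cell type name MNs. The series describes 1 WT line and 1 *Patz1* KO line made by CRISPR editing, so the genotype and the line cannot be told apart. *Patz1* itself, which encodes a zinc finger protein that binds DNA, had WT counts of 1363 and 1499 against 1154 and 714 in *Patz1* KO, so its transcript was reduced but still present. Total counts were 14769104 and 15728158 in WT and 23881522 and 17402342 in *Patz1* KO.

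Motor neurons arise from ventral neural tube progenitors that read sonic hedgehog, and retinoic acid gives them cervical identity. Embryoid bodies are aggregates of ESCs that can also give rise to cells of epithelial, endodermal and mesodermal lineages. PATZ1 is a zinc finger factor that recognises G-rich DNA.

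The MN label was checked against its markers. All 15 genes of a motor neuron list were detected in all 4 libraries, among them *Mnx1* (774 and 805 counts in WT, 2383 and 1525 in *Patz1* KO), *Chat* (439 and 427, then 1363 and 934) and *Isl1* (1971 and 2133, then 2704 and 2044). The list summed to 4445 and 4029 CPM in WT and to 7207 and 6453 CPM in *Patz1* KO. It also holds genes of neurons in general, such as *Stmn2* and *Tubb3*, so the sum is not of MN genes alone. CPM, the usual count scaled to library depth, was taken with library sizes corrected by the TMM method. The counts of single genes above are raw. In CPM, *Isl1* was lower in both *Patz1* KO libraries than in either WT library, so it was not among the genes called higher. None of the 33 genes is in that list, and 12 of its 15 genes were called higher and 1 lower in *Patz1* KO, beside 24.1% higher and 23.8% lower of all genes tested (test given with the lineage lists).

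The summed WT counts of the 33 genes were 1863 and 2212, against 89 and 82 in *Patz1* KO. This is 125 and 139 CPM against 3.67 and 4.89 CPM. The fold of the summed counts was 31.7 (95% exact interval 27.2 to 37.2, counting error only). In the 31 genes with a count in *Patz1* KO, the fold of WT over *Patz1* KO went from 10.7 (*Ap1m2*) to 361 (*Il8*), with a median of 30.6. The other 2, *Frmd7* and *Tpbpa*, had 0 counts in both *Patz1* KO libraries. A library with 0 counts allows up to 3, which sets a floor. Taking the WT mean as measured, *Frmd7* was at least 22.5-fold and *Tpbpa* at least 16-fold higher in WT. With these 2 genes at their bound the median fold was 30.5. The libraries carry no molecular identifiers. Intervals cover counting error only, floors cover that of the *Patz1* KO counts only, and neither covers the choice of the genes by these counts.

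The lower counts were found in the deeper libraries. At the depth of the *Patz1* KO libraries, the lowest WT level among the 33 genes would give 50.3 and 34.8 counts, and the median WT level 80 and 55.4 counts. Of 2837 symbols with both WT counts between 30 and 183, the range of the 33 genes, the median count in *Patz1* KO was 137 and 94. The 33 genes are 1.16% of these symbols. They were chosen for at most 6 counts in each *Patz1* KO library, so their distance from these values comes from the choice. In bulk RNA, fewer cells of a type and less RNA per cell cannot be told apart.

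**Figure D1:**
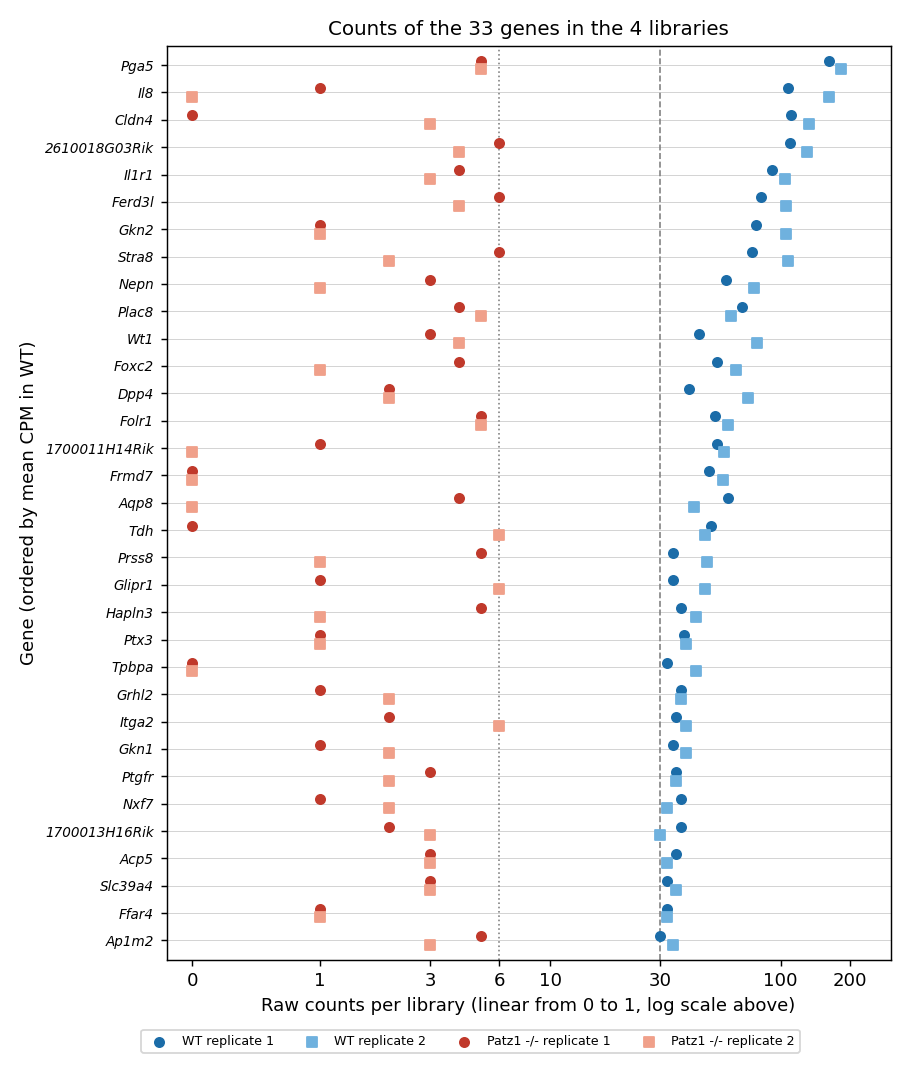
Counts of the 33 genes in WT (blue) and Patz1 KO (red) libraries, with the count on the x axis and 1 gene per line. The dashed line marks 30 counts and the dotted line 6 counts, the limits that chose the genes, so the empty space between them comes from the choice.

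None of the 33 genes was abundant in WT. Mean WT levels went from 2.08 to 11.2 CPM with a median of 3.3 CPM, against 24.5 CPM for the 14269 genes tested. The ratio of WT replicate 2 over replicate 1 went from 0.667 to 1.69. In 23 of the 33 genes the level was higher in WT replicate 2 (median log2 ratio 0.088, against 0.00073 for the genes tested). In *Patz1* KO, 17 of the 33 genes had at most 3 counts in each library.

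**Figure D2:**
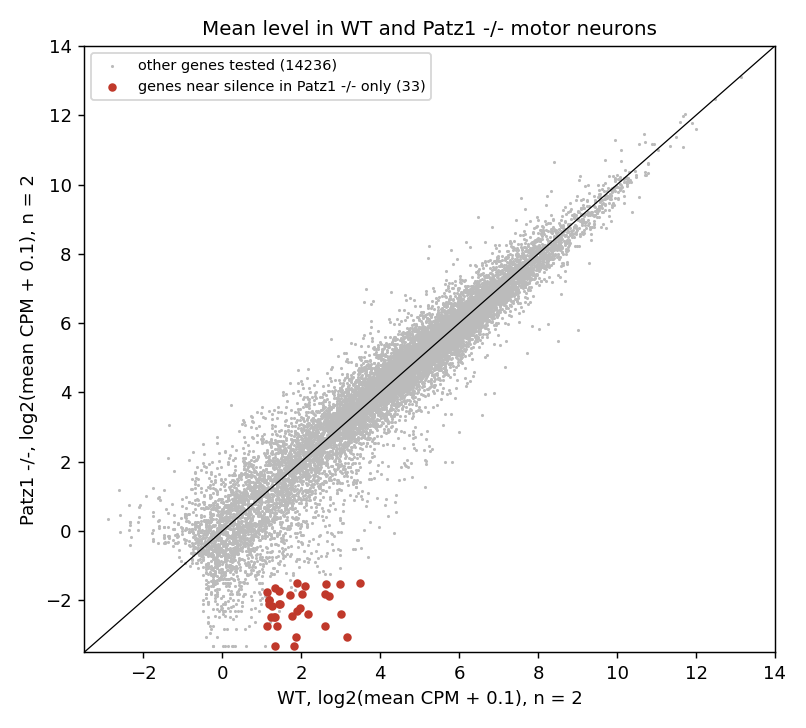
Mean CPM of each gene tested in WT (x axis) and in Patz1 KO (y axis), both as log2(mean CPM + 0.1), n = 2 libraries each, with the 33 genes in red and the other 14236 genes tested in grey. The line marks equal levels, and the 33 genes lie below it because they were chosen so. The choice set a minimum and no maximum in WT, so their low to moderate WT levels are an observation.

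By textbook role, assigned after the counts were seen, the 33 genes fall into 7 groups, and most are known from tissues other than the nervous system. These groups cover the stomach (3 genes), epithelial junctions and adhesion (5), transport and surface enzymes (5) and mesoderm and patterning factors (3). The others cover matrix and inflammatory signals, loosely grouped (9), germline and early embryo (4) and genes of other or little known function (4).

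The 3 stomach genes had the highest fold of the 7 groups, with an interval (counting error only) that overlapped those of other groups. Genes and groups were chosen with these counts known, so the order is a description only. The stomach lining secretes pepsinogen, the precursor of the protease pepsin, and gastrokines, small secreted proteins of its surface mucous cells. The precursor gene, *Pga5* (chromosome 19, 10668957 to 10678071, minus strand, all positions GRCm38), had WT counts of 162 and 183 against 5 and 5 in *Patz1* KO. It was the most abundant of the 33 genes in WT (11.2 ± 0.448 CPM, SD, n = 2), with a fold of 45.9 (95% exact interval 24.7 to 96.7). The gastrokine *Gkn2* had WT counts of 78 and 106 against 1 and 1 in *Patz1* KO, a fold of 123 (33.4 to 1019). Its neighbour *Gkn1* had WT counts of 34 and 39 against 1 and 2 in *Patz1* KO, a fold of 32.4 (10.7 to 161). The 3 genes summed to 18.4 and 20.6 CPM in WT and 0.289 and 0.477 CPM in *Patz1* KO, a fold of 53.4 (32.1 to 96.1).

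*Gkn1* (87345653 to 87350915, minus strand) and *Gkn2* (87373365 to 87379494, plus strand) lie 22.4 kb apart on chromosome 6 and are transcribed away from each other. They are the closest non-overlapping pair among the 33. The other gastrokine, *Gkn3*, had WT counts of 2 and 0 against 0 and 0 in *Patz1* KO and was not tested. The promoter windows of the pair are shown because both hold AGATAA, a form of the letters that GATA factors recognise. Other forms of these letters were not searched or marked. Windows run from 250 bases before to 50 bases after the RefSeq start (GRCm38.p6), 5′ to 3′ on the strand of the gene, with the match in capitals. The *Gkn1* window is chr6:87350866-87351165 (minus strand) and that of *Gkn2* is chr6:87373115-87373414 (plus strand). The match begins 82 bases before the start in *Gkn1* and 218 bases before it in *Gkn2*.
Gkn1: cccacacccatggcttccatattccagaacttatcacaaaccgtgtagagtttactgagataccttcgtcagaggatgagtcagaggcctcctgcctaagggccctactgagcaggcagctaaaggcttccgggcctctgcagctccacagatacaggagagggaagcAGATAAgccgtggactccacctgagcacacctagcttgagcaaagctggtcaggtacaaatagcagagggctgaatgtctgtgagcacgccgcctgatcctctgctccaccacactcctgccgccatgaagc
Gkn2: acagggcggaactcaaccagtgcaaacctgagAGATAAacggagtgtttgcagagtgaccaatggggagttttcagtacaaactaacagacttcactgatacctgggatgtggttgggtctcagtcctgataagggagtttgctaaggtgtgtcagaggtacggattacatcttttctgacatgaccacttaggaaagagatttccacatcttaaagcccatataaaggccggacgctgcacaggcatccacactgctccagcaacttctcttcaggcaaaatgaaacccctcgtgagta

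Among the epithelial genes, *Cldn4* and *Grhl2* stand at either end of a textbook relation: claudins seal tight junctions, and the factor GRHL2 switches on junction genes. *Cldn4* (chromosome 5, 134945123 to 134946934, minus strand) had WT counts of 111 and 133 against 0 and 3 in *Patz1* KO. The means were 7.91 ± 0.645 and 0.0894 ± 0.126 CPM (SD, n = 2 each). Its fold was 108 (95% exact interval 36.6 to 529). *Grhl2* (chromosome 15, 37232821 to 37363569) had WT counts of 37 and 37 against 1 and 2 in *Patz1* KO, a fold of 32.9 (10.8 to 163). *Grhl2* has the longest summed exons of the 33 genes (8613 bases). *Prss8*, the membrane protease prostasin, had WT counts of 34 and 48 against 5 and 1 in *Patz1* KO. *Ap1m2*, a subunit of the sorting adaptor of polarised epithelia, had WT counts of 30 and 34 against 5 and 3 in *Patz1* KO. The collagen receptor subunit *Itga2* had WT counts of 35 and 39 against 2 and 6 in *Patz1* KO. These last 3 genes sat close to the limits of the choice, with folds of 18.2, 10.7 and 12.3. The 5 genes summed to 16.6 and 18.3 CPM in WT and 0.536 and 0.894 CPM in *Patz1* KO.

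The *Cldn4* window (chr5:134946885-134947184, minus strand) is shown because it holds GGGAGGG, a G-rich core common to the known PATZ1 and MAZ motifs. It reads CCCTCCC on the printed strand and begins 58 bases before the start. Whether PATZ1 was bound there was not tested. The window of *Il8*, described below, is shown beside it because of a TATAAA that begins 27 bases before the start (chr5:90794284-90794583, plus strand), where a TATA box commonly lies.
Cldn4: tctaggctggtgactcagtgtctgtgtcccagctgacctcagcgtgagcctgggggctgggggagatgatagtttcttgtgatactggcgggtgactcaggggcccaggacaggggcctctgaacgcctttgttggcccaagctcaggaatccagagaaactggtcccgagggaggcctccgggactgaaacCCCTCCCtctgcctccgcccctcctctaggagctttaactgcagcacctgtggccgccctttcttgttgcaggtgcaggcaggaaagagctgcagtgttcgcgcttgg
Il8: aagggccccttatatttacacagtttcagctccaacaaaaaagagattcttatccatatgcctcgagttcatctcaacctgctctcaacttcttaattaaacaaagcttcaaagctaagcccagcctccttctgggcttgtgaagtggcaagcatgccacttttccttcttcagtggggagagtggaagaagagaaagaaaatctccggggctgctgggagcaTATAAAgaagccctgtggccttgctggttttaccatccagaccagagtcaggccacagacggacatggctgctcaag

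Genes for transport and for surface receptors and enzymes of gut, kidney and placental epithelia formed the next group. The water channel *Aqp8* had WT counts of 59 and 42 against 4 and 0 in *Patz1* KO. The zinc importer *Slc39a4* had WT counts of 32 and 35 against 3 and 3 in *Patz1* KO. *Folr1*, the folate receptor, had WT counts of 52 and 59 against 5 and 5 in *Patz1* KO. In each of the 3, the lower WT count was over 10 times the higher *Patz1* KO count. The surface peptidase *Dpp4* had WT counts of 40 and 72 against 2 and 2 in *Patz1* KO. *Ffar4*, a receptor for long-chain fatty acids, had WT counts of 32 and 32 against 1 and 1 in *Patz1* KO. The folds of the 5 genes lay between 14.8 (*Folr1*) and 42.6 (*Ffar4*), and their WT levels between 2.08 and 3.61 CPM. *Dpp4* was among the genes with the widest spread between the WT replicates (3.61 ± 1.3 CPM, SD, n = 2).

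A group of 3 genes encodes transcription factors of mesoderm and of neural patterning. *Wt1*, a zinc finger factor of the embryonic kidney, gonad and mesothelium, had WT counts of 44 and 79 against 3 and 4 in *Patz1* KO, a fold of 23.4 (11 to 59.4). It lies on chromosome 2 (105126529 to 105173614), and its WT level was 3.96 ± 1.42 CPM (SD, n = 2), the widest relative spread between WT replicates in this group. *Foxc2* (chromosome 8, 121116171 to 121118895), a forkhead factor of paraxial mesoderm and vessels, had WT counts of 53 and 64 against 4 and 1 in *Patz1* KO, a fold of 31.2 (13 to 97.8). *Ferd3l* (chromosome 12, 33928425 to 33929310) encodes a basic helix-loop-helix factor of the floor plate, the ventral midline of the neural tube. It had WT counts of 82 and 106 against 6 and 4 in *Patz1* KO, a fold of 25 (13.3 to 53.1). Among the 33 genes it is the one with a textbook place in the ventral neural tube.

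The largest group is a loose one of matrix proteins, inflammatory signals and receptors. It also holds genes of other roles, such as *Acp5* and *Plac8*. *Il8*, which RefSeq lists as *Cxcl15*, is a chemokine gene on chromosome 5 (90794534 to 90803067, plus strand). It had WT counts of 108 and 163 against 1 and 0 in *Patz1* KO, and the ratio of 361 has a counting interval from 64.2 to 14307. The interleukin 1 receptor gene *Il1r1* had WT counts of 92 and 104 against 4 and 3 in *Patz1* KO, a fold of 37.3 (17.8 to 94). Both were among the 5 genes with the highest WT levels of the 33. The prostaglandin F receptor gene *Ptgfr* had WT counts of 35 and 35 against 3 and 2 in *Patz1* KO. *Ptx3*, a secreted pentraxin of innate immunity, had WT counts of 38 and 39 against 1 and 1 in *Patz1* KO. *Plac8*, a small protein of placenta and blood cells, had WT counts of 68 and 61 against 4 and 5 in *Patz1* KO. *Plac8* was among the few genes with a lower count in WT replicate 2. *Acp5*, the tartrate-resistant phosphatase of osteoclasts, had WT counts of 35 and 32 against 3 and 3 in *Patz1* KO. The leucine-rich matrix protein gene *Nepn*, known from gut endoderm, had WT counts of 58 and 77 against 3 and 1 in *Patz1* KO. *Hapln3*, which links hyaluronan to proteoglycans, had WT counts of 37 and 43 against 5 and 1 in *Patz1* KO. Together with *Glipr1* (34 and 47 counts in WT, 1 and 6 in *Patz1* KO), the 9 genes summed to 33.9 and 37.8 CPM in WT and 1.03 and 1.31 CPM in *Patz1* KO, a fold of 31.3 (23.4 to 42.9).

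Germline and early embryo genes made up 4 of the 33. *Stra8*, the retinoic acid-responsive gatekeeper of meiosis, had WT counts of 75 and 108 against 6 and 2 in *Patz1* KO, a fold of 30.5 (15.1 to 71.6). *Tdh*, the threonine dehydrogenase on which mouse ESC metabolism depends, had WT counts of 50 and 47 against 0 and 6 in *Patz1* KO. The trophoblast marker *Tpbpa* (chromosome 13, 60938492 to 60941936), a gene of the junctional zone of the placenta, had WT counts of 32 and 43 against 0 and 0 in *Patz1* KO. *Nxf7*, a relative of the mRNA export factor, had WT counts of 37 and 32 against 1 and 2 in *Patz1* KO. The *Patz1* KO counts of *Tdh* were among the most uneven, since replicate 1 had no read and replicate 2 stood at the limit of 6.

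The last 4 genes are a kinase, a membrane-linked protein and a pair of little-studied genes. *2610018G03Rik*, which RefSeq lists as *Stk26*, encodes a Ste20-type kinase and had WT counts of 110 and 130 against 6 and 4 in *Patz1* KO. *Frmd7*, whose human counterpart is mutated in congenital nystagmus, had WT counts of 49 and 56 against 0 and 0 in *Patz1* KO. Both lie on the X chromosome, from 50841174 to 50893103 on the plus strand and from 50892643 to 50943619 on the minus strand. They run toward each other, and their RefSeq positions overlap by 461 bases. *1700011H14Rik* (RefSeq *Ccdc198*) had WT counts of 53 and 57 against 1 and 0 in *Patz1* KO, and the ratio of 146 has a counting interval from 25.8 to 5838. *1700013H16Rik*, also on the X chromosome, had WT counts of 37 and 30 against 2 and 3 in *Patz1* KO.

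Scaled by exon length, the order of WT levels changed. *Gkn2* came first with 7.55 CPM per kb of exon, followed by *Pga5* with 6.93 and *Ferd3l* with 6.87, while *Grhl2* came last with 0.279. The median exon length of the 33 genes was 2142 bases, against 4463 bases for the genes tested. By the exons of GENCODE M21, 9 of the 33 genes overlap a gene on the opposite strand, among them *Glipr1* with *Krr1* and *Prss8* with *Kat8*. *2610018G03Rik* and *Frmd7* overlap by their RefSeq positions and not by these exons. The strand setting of the counting was not given in the sources used here, so reads of such pairs may not have been told apart.

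The genes next to the limits are given with their counts. Just inside the WT limit stood *1700013H16Rik*, *Ap1m2*, *Acp5*, *Ffar4*, *Nxf7*, *Slc39a4* and *Tpbpa*, with lower WT counts from 30 to 32. Just outside it stood *Atp8b1* (29 and 49 counts in WT, 1 and 1 in *Patz1* KO), *Vnn1* (39 and 29, then 3 and 0), *Crb3* (28 and 31, then 5 and 5), *Krt7* (43 and 28, then 2 and 3) and *L1td1* (30 and 26, then 3 and 3). *Crb3* and *Krt7* are genes of polarised epithelia. At the limit of 6 counts in *Patz1* KO stood *2610018G03Rik*, *Ferd3l*, *Glipr1*, *Itga2*, *Stra8* and *Tdh*. Just outside it were 10 symbols at 7 counts. The 5 of them with the highest lower WT counts were *Leprel1* (86 and 114, then 7 and 6), *Osr1* (84 and 100, then 7 and 6), *Eps8l2* (54 and 50, then 6 and 7), *Tspan8* (49 and 59, then 7 and 2) and *Ugt2b34* (44 and 49, then 7 and 1). *Osr1*, a factor of intermediate mesoderm, missed the limit by 1 count.

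In all, 13 lists of lineage markers place the 33 genes among other genes of their kind; 8 of the 33 are in a list and 25 in none. Over all 14269 genes tested, 3392 (23.8%) were called lower and 3444 (24.1%) higher in *Patz1* KO by edgeR's quasi-likelihood test, at a threshold of 0.05 on Benjamini-Hochberg adjusted p-values. The median log2 fold change of all genes tested was -0.0014. Without WT replicate 2 the calls fell to 2175 lower and 2346 higher. The 33 genes are left out of every count below. The remaining genes come from the same libraries and the same contrast that chose the 33.

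Epithelial markers were lower almost throughout. Of the 21 tested, 19 were lower and 0 higher, with a median log2 fold change of -3.11. *Dsp*, a plaque protein of desmosomes, fell by 3.15 on the log2 scale. Named after their values were seen, *Epcam* had WT counts of 98 and 109 against 9 and 22 in *Patz1* KO, *Cdh1* 300 and 378 against 75 and 37, and *Krt8* 343 and 306 against 45 and 35. The list without its members *Cldn4*, *Grhl2* and *Prss8* summed to 209 and 215 CPM in WT and 31.4 and 35.8 CPM in *Patz1* KO. Among its 30 genes, *Pkp1* had 0 counts in every library.

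Markers of primitive and visceral endoderm, which hold none of the 33 genes, were lower in 26 of 33 tested and higher in 1, with a median log2 fold change of -2.61. They summed to 762 and 788 CPM in WT and 420 and 375 CPM in *Patz1* KO. Of mesoderm and heart markers, the list of *Foxc2* and *Wt1*, 9 of 15 tested were lower and 0 higher (median -2.12). *Foxf1*, a forkhead factor of lateral mesoderm, fell by 3.29 on the log2 scale. The early mesoderm factors *Mesp1* and *Msgn1* had 0 counts in every library. Mesenchyme and smooth muscle markers were lower in 17 of 21 and higher in 1 (median -1.72).

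The floor plate list, which holds *Ferd3l*, went both ways, with 8 of 13 lower and 3 higher and a median of -0.48. *Shh*, the morphogen of the floor plate, fell by 2.99 on the log2 scale, while the homeobox gene *Nkx2-9* rose by 2.28. Without *Ferd3l* the list summed to 1958 and 1937 CPM in WT and 1904 and 1797 CPM in *Patz1* KO, so the sums nearly met while single genes parted. Without WT replicate 2, 1 floor plate gene was higher.

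The lists of *Tpbpa* and *Stra8*, trophoblast and germline markers, held few tested genes. Of 8 trophoblast markers tested, 5 were lower and 0 higher (median -0.74). Among the lower was *Krt7* (log2 fold change -4.17), which is also a gene of polarised epithelia and stood just outside the WT limit. Of the 19 trophoblast genes without *Tpbpa*, *Prl2c2* and *Synb* had 0 counts in every library. Among the 11 germline markers tested, 1 was lower, 2 were higher and 8 were not called (median -0.41). *Dazl*, an RNA-binding protein of germ cells, fell by 1.78 on the log2 scale (not called without WT replicate 2) and *Rpl10l*, a ribosomal protein gene of the testis, rose by 1.71 (1.08 without WT replicate 1 and 2.98 without WT replicate 2). The germline list without *Stra8* summed to 24.6 and 31.4 CPM in WT and 31.1 and 30.8 CPM in *Patz1* KO, so the ranges overlapped between the groups. Without WT replicate 1, 3 trophoblast markers were lower, and over the fits that left out 1 library the germline list had 0 to 3 lower and 1 or 2 higher genes.

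In the lists that remain, which hold none of the 33, the counts were mixed. Of endothelium markers 10 of 21 were lower and 3 higher, and of blood markers 3 of 11 were lower and 1 higher. The summed endothelium level was 55.5 and 57.4 CPM in WT and 75.4 and 69.9 CPM in *Patz1* KO, so it was higher in *Patz1* KO although more markers were lower. Neural crest and Schwann cell markers split into 5 lower and 5 higher of 18, with sums of 946 and 909 CPM in WT and 1340 and 1340 CPM in *Patz1* KO, and pluripotency markers into 5 lower and 0 higher of 9. Leaving out 1 library moved these counts, to 6 lower endothelium markers without WT replicate 1, to 1 lower neural crest marker without WT replicate 2 and to 2 lower pluripotency markers without WT replicate 1. Of 5 Y-linked genes tested, 4 were lower and 0 higher (median -1.94), and the list summed to 65.6 and 71.4 CPM in WT and 25.2 and 25.7 CPM in *Patz1* KO. The part of Y-linked RNA, line or the share of other cells in the levels of the 33 genes was not tested.

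**Figure D3:**
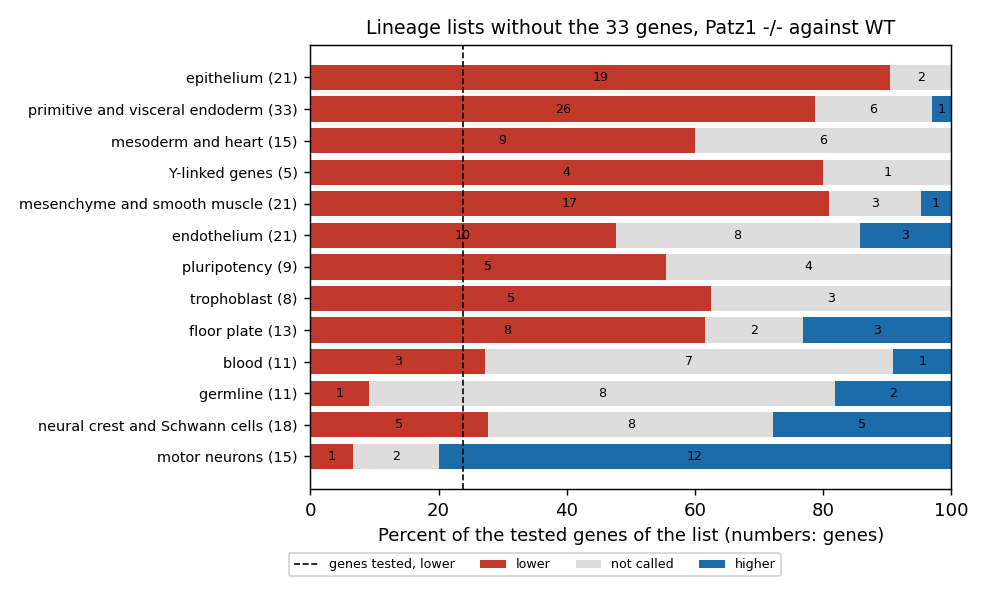
Share of the tested genes of each of 13 lineage lists that were lower (red), not called (grey) or higher (blue) in Patz1 KO at an adjusted p below 0.05, with the number of genes written in each bar and the 33 genes left out. The dashed line marks the 23.8% of all genes tested that were lower, and the epithelium list reaches farthest past it (19 of 21).

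Relatives of the 33 genes did not move as one. For 23 of the 33, 110 paralogs were listed after the 33 were known, of which 64 were tested. Of these, 20 were lower, 16 higher and 28 not called, with a median log2 fold change of -0.17. Over all genes tested the shares were 23.8% lower and 24.1% higher. All paralogs named here were chosen after their values were seen. Claudins were lower in 6 of 10 tested and higher in 1, from *Cldn6*, which fell by 4.01 on the log2 scale, to *Cldn12*, which rose by 0.69. The closest relative of *Foxc2*, *Foxc1*, had WT counts of 86 and 122 against 15 and 12 in *Patz1* KO and fell by 3.34. *Grhl1*, the only one tested of the 2 listed relatives of *Grhl2*, had WT counts of 17 and 19 against 21 and 21 in *Patz1* KO and was not called. Relatives of *Ptgfr* went the other way, since all 4 prostaglandin receptor genes tested were higher. *Ptgdr*, the prostaglandin D receptor gene, had WT counts of 21 and 28 against 232 and 162 in *Patz1* KO and rose by 2.59 on the log2 scale. The alpha integrins were lower in 6 of 12 tested and higher in 1, and the zinc transporters of the *Slc39a* family were lower in 3 of 12 and higher in 1. The chemokine *Cxcl5*, a relative and neighbour of *Il8*, had WT counts of 5 and 13 against 0 and 0 in *Patz1* KO, too few to be tested.

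The 33 genes were spread over 15 of 21 chromosomes. The X chromosome held 4 of them (12.1%, against 3.72% of the genes tested), as did chromosome 7 (12.1%, against 7.49%). Of the 62 tested genes that lie next to one of the 33, 15 were lower (24.2%) and 20 higher (32.3%), beside 23.8% and 24.1% of all genes tested. Their median log2 fold change was 0.085. These counts fell to 9 lower and 13 higher without WT replicate 1, and to 8 lower and 11 higher without WT replicate 2. For 19 of the 33 genes neither tested neighbour was lower, for 12 one was and for 2, *Tpbpa* and *Ffar4*, both were. Within 500 kb on either side, 85 of 336 tested genes were lower (25.3%) and 97 higher (28.9%), with a median of 0.04. The share of lower genes around the 33 was thus near that of all genes tested.

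For 14 of the 33 genes at least 1 nearest tested neighbour was lower. *Ffar4* lies 2.36 kb from *Rbp4*, the retinol carrier gene of visceral endoderm and liver, which fell by 3.90 on the log2 scale (245 and 321 counts in WT, 26 and 24 in *Patz1* KO). On its other side *Cep55*, a gene of cell division, fell by 0.64. *Tpbpa* lies between *Ctla2a*, which fell by 0.86, and the placental cathepsin gene *Ctsj*, 58.2 kb away. *Ctsj* had WT counts of 18 and 26 against 0 and 0 in *Patz1* KO, so it was at least 9.4-fold higher in WT. *Ferd3l* lies 28.4 kb from *Twist1*, another basic helix-loop-helix gene, which fell by 2.63 (53 and 70 counts in WT, 12 and 14 in *Patz1* KO). *Foxc2* lies 8.79 kb from *Foxl1*, which fell by 2.93, whereas *Mthfsd*, 7.76 kb away on the other side, rose by 0.37. *Itga2* lies 26 kb from *Itga1*, which fell by 1.23, and 3.66 kb from *Mocs2*, which rose by 0.28. *1700013H16Rik* lies 14.7 kb from *Zfp36l3*, which fell by 2.21, and *Ptx3* overlaps the span of *Veph1*, which fell by 0.82. Smaller falls were those of *Rcn1* beside *Wt1* (0.3), *Cpsf1* beside *Slc39a4* (0.29), *Krr1* beside *Glipr1* (0.27) and *Naa30* beside *1700011H14Rik* (0.24). The calls of *Ctla2a*, *Mthfsd*, *Itga1*, *Mocs2*, *Veph1*, *Rcn1*, *Cpsf1*, *Krr1* and *Naa30* were lost in at least 1 fit that left out a library.

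Around other genes of the 33, nearest neighbours were higher, went both ways or were not called. *Antxr1*, 9.84 kb from *Gkn1*, rose by 0.34, and *Arhgap25*, 79 kb from *Gkn2*, had WT counts of 30 and 32 against 245 and 149 in *Patz1* KO and rose by 2.24 on the log2 scale. *Wbscr27*, 2.48 kb from *Cldn4*, rose by 0.75, while *Cldn3*, 39.3 kb on the other side, fell by 0.69. The calls of *Antxr1* and *Cldn3* were lost without WT replicate 1. *Ncald*, 2.6 kb from *Grhl2*, was not called (log2 fold change -0.075). Around *2610018G03Rik* and *Frmd7*, *Rap2c* fell by 0.54 and *6720401G13Rik* rose by 0.58.

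**Figure D4:**
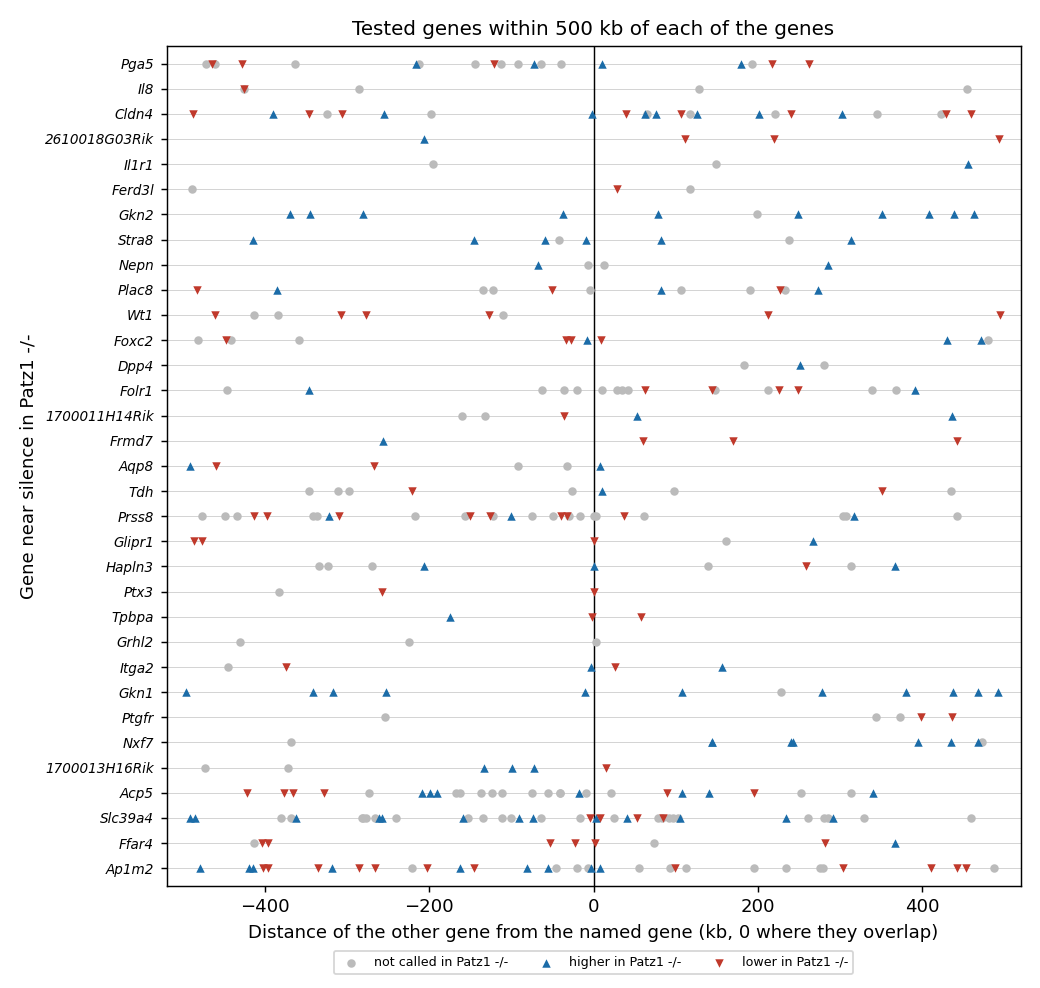
Tested genes within 500 kb of each of the 33 genes, placed by their distance in kb (x axis) from the gene named on the line, and marked as lower (red), higher (blue) or not called (grey) in Patz1 KO. Lower genes make up 25.3% of the 336 genes plotted, and 8 of the 33 genes have none: Dpp4, Gkn1, Gkn2, Grhl2, Il1r1, Nepn, Nxf7 and Stra8.

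RefSeq gave 29 promoter windows for 24 of the 33 genes. Their median GC content was 54.3%, against 52.7% over 32851 windows of all genes, and the median number of CpG was 7 in both. Motifs were searched by their letters on both strands, and a match is only a match of letters. GGGAGGG was in a window of 5 of the 24 genes (20.8%: *Acp5*, *Cldn4*, *Dpp4*, *Ffar4* and *Ptx3*), against 23.8% of 27025 genes. TATAAA was in 6 of 24 (25%, against 15.7%), among them *Il8* and *Gkn2*. AGATAA, the only form of the GATA letters searched, was also in 6 of 24 (25%, against 12.7%): *Acp5*, *Dpp4*, *Gkn1*, *Gkn2*, *Nepn* and *Nxf7*. The forkhead letters TGTTTAC were in 2 of 24 (8.33%, against 4.05%) and the SOX letters ACAATG in 4 of 24 (16.7%, against 14.3%). CAGGAAG, read by ETS factors, was in 3 of 24 (12.5%, against 14.8%) and CATTCC, read by TEAD factors, in 5 of 24 (20.8%, against 16.6%). GTTAAT, read by HNF1, was in 0 of 24, against 8.24% of all genes. *Pga5*, *Wt1*, *Foxc2*, *Folr1*, *Tdh*, *Prss8*, *Glipr1*, *Grhl2* and *Slc39a4* had no window in the table used.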

How the data were processed

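RNA-seq was available for 4 libraries of cervical MNs. The authors deposited raw counts, not normalized, for 23420 gene symbols in each. The submitters' processing notes name mm10, TopHat2 2.1.1, Bowtie2 2.3.1, featureCounts 1.6.2 and DESeq2, without their role or order. The strand setting was not given in the sources used here.

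Samples were grouped by the genotype in their labels, with 2 libraries per group. The study calls them biological replicates from independent differentiations, while the labels give only a number. Replicates differed by more than sampling noise, since the chi-square per gene between them was 8.44 (WT) and 18.7 (*Patz1* KO). The members and the lineage lists were chosen with earlier results of these data known. 1 gene counted in the lists is left out of the text. Gene families and roles were written after the 33 genes were known.

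Counts were normalized with TMM, filtered with filterByExpr (minimum count 10) and tested with edgeR's quasi-likelihood test (edgeR 4.0.16, limma 3.58.1, R 4.3.3) with Benjamini-Hochberg adjustment over 14269 genes, at 0.05. All 33 genes passed that filter, which they could do through WT alone. The test was tested on simulated data. Folds of the 33 genes are ratios of summed counts over TMM library sizes, with 95% exact binomial (Clopper-Pearson) intervals. The total count per library, 14769104 at the lowest, limits the precision: 6 counts are 0.248 and 0.358 CPM in *Patz1* KO, and 30 counts are 2.01 and 1.89 CPM in WT. Positions and neighbours come from RefSeq on GRCm38.p6, the assembly of mm10, and exon overlaps from GENCODE M21. RefSeq positions were found for 23241 symbols, 1670 of them by an older symbol, and for all 33 genes (3 by an older symbol).

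All 33 genes may be named. Of other genes, the text names *Patz1*, motor neuron markers and at most 2 called genes per list by smallest p. It also names the 5 nearest each limit (with ties on the inside only) and the nearest tested neighbours. Some list genes, not all such genes, are named for their 0 counts in every library. Where another gene was chosen after its values were seen, the text says so. Alternatives were DESeq2's size factors, no filter on low counts, a replicate block, DESeq2's Wald test (DESeq2 1.42.0), other limits, scaled or thinned counts, and leaving out each library. Scripts used Python 3.11.15, numpy 2.4.6, pandas 2.3.3, scipy 1.17.1 and matplotlib 3.10.9.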

Additional observations from a re-analysis of the deposited data

How the results depend on the processing

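The number of genes near silence in *Patz1* KO depended on the limits that define them. It was 51 with at least 20 counts in WT, 13 with at least 50, 17 with at most 3 counts in *Patz1* KO and 60 with at most 10. Counts scaled to the mean library size gave 44 genes (30 of the 33 among them, without *Glipr1*, *Itga2* and *Tdh*), and counts thinned to the smallest library gave 49 (all 33 among them). Leaving out each library gave 38 to 65 genes, the highest number without *Patz1* KO replicate 1, the deepest library. All 33 were among them by construction, since the rule then asks less. The fold of their summed counts, an alternative chosen after seeing the data, was 27.1 without *Patz1* KO replicate 1.

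Over all genes tested, leaving out each library gave 2175 to 3831 genes called lower and 2346 to 3985 called higher. A lone library was then assumed to vary like the other group. DESeq2's Wald test called 2444 lower and 2672 higher. The fit with a replicate block called 3651 lower and 3710 higher. The labels give replicate numbers and state no pairing, so the block is not a pairing known from the design. The deviations of same-numbered libraries correlated at 0.0304 over 14269 genes, which cannot show how the cultures were run. The log2 fold change of *Grhl1* turned from -0.17 to 0.10 without *Patz1* KO replicate 1 and was not called in either fit, and leaving out each library gave -0.42 to 0.10. For *Ncald*, also not called, leaving out each library gave -0.17 to 0.02. DESeq2's Wald test did not call *Antxr1*, *Cldn3*, *Itga1*, *Mocs2*, *Mthfsd*, *Veph1*, *Krr1* and *Naa30*, and it called 6 endothelium and 2 pluripotency markers lower. Without *Patz1* KO replicate 2, 2 motor neuron markers were lower and 2 blood markers higher, without *Patz1* KO replicate 1, 1 mesoderm marker was higher, and without WT replicate 1, 0 mesenchyme markers were higher. Depth limits the *Patz1* KO levels of the 17 genes with at most 3 counts in each of its libraries, whose folds are the least certain.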
